A study of Homo sapiens with 6 samples.

Results

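The genes for the proteins of the cytoplasmic ribosome were followed through maps of DNA double-strand breaks (DSBs) made by END-seq. Members were the protein-coding genes of chromosomes 1 to 22 whose symbol names a large-subunit (RPL) or small-subunit (RPS) ribosomal protein, the P-stalk genes RPLP0, RPLP1 and RPLP2, and RPSA. This rule found 73 of 19229 autosomal protein-coding genes, and 4 further genes with such symbols on chromosome X were left out. END-seq ligates an adapter to free DNA ends in cells embedded in agarose and sequences away from the break, so that reads of the reverse strand pile up to the left of a DSB and reads of the forward strand to its right. The cells were HCT116, a human colorectal carcinoma line, untreated (Ctrl) or treated with 10 µM camptothecin (CPT), a poison that traps topoisomerase I on DNA, for 10 min (CPT10) or 20 min (CPT20), with 2 biological replicates each. In the sample titles 10 and 20 stand as µM, but the protocol has 1 dose for 10 or 20 minutes, and the latter reading was used. The study calls the replicates biological, and p-values measure the spread between these libraries.

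Each of the 4 treated libraries came as a forward and a reverse peak list, and the lists held between 286491 and 826744 peaks, the fewest in CPT20 replicate 2. Values per library are given in the order CPT10 replicate 1, CPT10 replicate 2, CPT20 replicate 1, CPT20 replicate 2. Values measured the same way in the Ctrl libraries were not analysed here, so the reference for each gene was its own surroundings and the reference for the list was other genes. The window of a gene was its body plus 5 kb on each side. Similar-length genes were the 8314 other autosomal protein-coding genes between 2165 and 27183 bp, the span of the middle of the members' own lengths.

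Every growing cell has to make ribosomal proteins in very large and balanced amounts, and their genes rank among the most heavily transcribed by RNA polymerase II. They are mostly short, intron-containing genes scattered over the genome, and many carry small nucleolar RNAs (snoRNAs) in their introns. Topoisomerase I relaxes the supercoils that a moving polymerase leaves behind and ahead of it. A trapped topoisomerase I complex is a single-strand break that can become a DSB, for example when a replication fork runs into it.

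A feature that most members shared, and that the choice of members did not use, is the pyrimidine tract at the start of their transcripts, known as the 5′ terminal oligopyrimidine motif. In the 30 bases from 10 before to 20 within the canonical transcript, 66 of 73 members (90.4%) held an uninterrupted run of at least 8 C or T bases, against 12.4% of all autosomal protein-coding genes and 12.2% of similar-length genes. The median longest run was 11 bases in members and 4 bases in similar-length genes. Shown are the starts (hg19, read along transcription, longest pyrimidine run in capitals) of the 6 members with the highest peak density over their surroundings.
RPS28, chr19:8386370-8386399, plus strand: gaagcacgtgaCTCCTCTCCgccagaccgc
RPS15A, chr16:18801637-18801666, minus strand: ccctcccgTCCTCTTTCCgccatctttccg
RPL21, chr13:27825685-27825714, plus strand: ccgCCTCTTTCCTTTCggccggaaccgcca
RPL9, chr4:39460523-39460552, minus strand: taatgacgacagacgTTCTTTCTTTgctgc
RPL32, chr3:12883045-12883074, minus strand: acgacccatcagCCCTTgcgcgccaccgtc
RPS12, chr6:133135698-133135727, plus strand: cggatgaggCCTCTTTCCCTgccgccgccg
The run spans 9 to 13 bases in RPS28, RPS15A, RPL21, RPL9 and RPS12 and only 5 bases in RPL32. Strand composition after the start also differed, there towards more G than C along transcription. The GC skew of the 1000 bases after the start, (G − C)/(G + C) along transcription, had a median of 0.115 in members and 0.0398 in similar-length genes. It was above 0 in 69 of 73 members (94.5%) against 66.1% of similar-length genes. Genes for proteins of the mitochondrial ribosome lay between, with a median of 0.0775 and 83.3% above 0.

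Nearly all ribosomal protein genes carried a DSB site that was found in both replicates of a time. A DSB site was the interval from a reverse peak to its closest forward peak less than 150 bp away, and it was replicated where sites of both libraries of a time overlapped. At 10 min, 62 of 73 windows held a replicated site (84.9%, 95% Wilson interval 75.0 to 91.4%), where 9.56% of similar-length genes did. At 20 min, 67 windows did (91.8%, 83.2 to 96.2%), against 11.3%. At both times, 60 windows did (82.2%, 71.9 to 89.3%), against 5.51%. Taking for each member the genes within 20% of its length gave mean shares of 8.87% at 10 min and 10.9% at 20 min. These intervals cover counting error over genes only, not the spread between libraries, and the list was not tested against other genes.

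The contrast was larger for replicated sites than for sites of a single library. A site in the window was present for 70, 68, 71 and 69 of the 73 members in the 4 libraries, and for 67.2%, 39.8%, 69.3% and 25.2% of similar-length genes. Among members, 39 had more than 1 replicated site at 10 min and 38 had more than 1 at 20 min. A replicated site only at 20 min was found for 7 members, among them RPL11, RPL35, RPLP2, RPS10, RPS19 and RPS23, and only at 10 min for RPS14 and RPS25. The remaining 4, among them RPL35A, RPS15 and RPS18, had none at either time. The counts depended on peak strength: with peaks of a −log10 q of at least 10, replicated sites remained in 9 windows at 10 min and 30 windows at 20 min, where 0.866% and 1.84% of similar-length genes had one. Asking that replicate sites cover each other by 50% or more left 42 members at 10 min (3.92% of similar-length genes) and 39 at 20 min (5.09%).

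**Figure D1:**
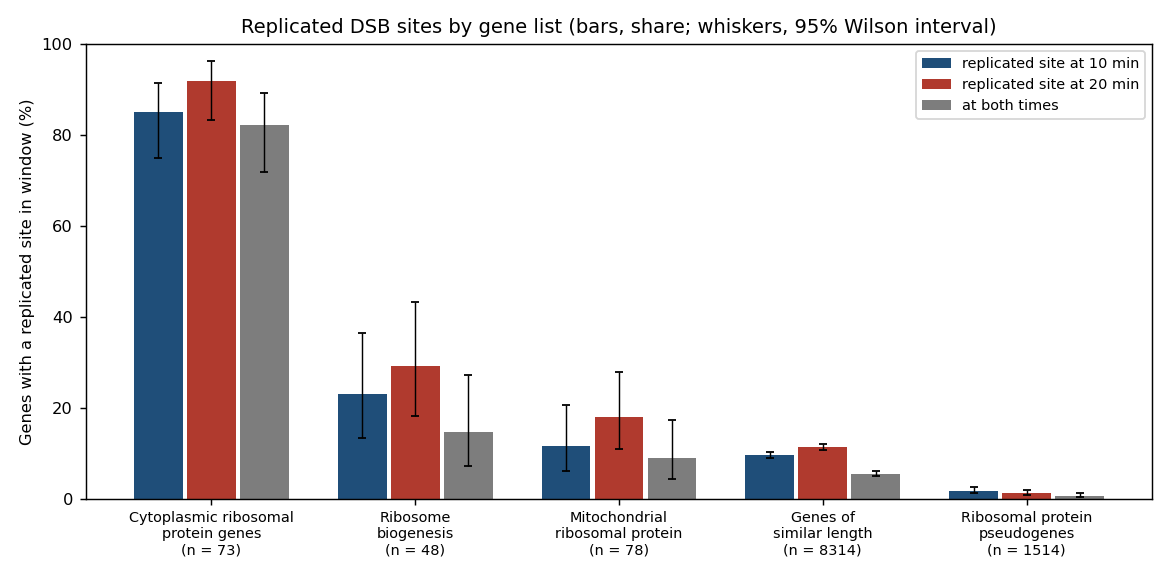
Share of genes (y axis, %) with a replicated DSB site within the gene body plus 5 kb each side, at 10 min, at 20 min and at both times, for 5 gene lists. Bars are shares and whiskers 95% Wilson intervals. The 3 bars of the cytoplasmic ribosomal protein genes stand between 82.2 and 91.8%, and no bar of the other lists drawn exceeds 29.2%. The 8 L-suffixed paralogs are not drawn, and their shares were 50% at 10 min and 37.5% at 20 min.

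Other lists connected with ribosomes had lower shares. Of 48 autosomal genes for nucleolar proteins and factors of ribosome biogenesis, 11 had a replicated site at 10 min (22.9%) and 14 at 20 min (29.2%). Of 78 genes for proteins of the mitochondrial ribosome, which is encoded by separate nuclear genes, 9 had one at 10 min (11.5%) and 14 at 20 min (17.9%). Of 8 L-suffixed paralogs, 4 had one at 10 min and 3 at 20 min. The 1514 processed and other pseudogenes of ribosomal proteins had one in 1.72% of cases at 10 min and 1.25% at 20 min.

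Peak numbers were higher in members' windows than around them. Peaks in each window were compared with the number expected from the 45 kb on either side of the window. Summed over the 72 members whose flanks held peaks, windows held 1618, 1190, 1546 and 1050 peaks where 910, 541, 932 and 322 were expected. These are ratios of 1.78, 2.198, 1.66 and 3.27, and the corresponding ratios of similar-length genes were 1.10, 1.09, 1.13 and 1.21. All 4 libraries showed the excess, and it was largest in CPT20 replicate 2, the library with the shortest lists. With every list limited to its best 286491 peaks the ratios of members were 2.64, 3.13, 2.37 and 3.27, and those of similar-length genes were 1.18, 1.13, 1.19 and 1.21.

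In a limma fit over 18829 autosomal protein-coding genes with at least 20 peaks in window and flanks, 38 of 72 members had a window density above their flanks at an adjusted p (Benjamini-Hochberg) below 0.05. Over all genes tested 2.42% were called higher and 1.14% lower, and over similar-length genes 3.75% were called higher. The median log2 ratio was 1.14 over members, 0.058 over similar-length genes and 0.043 over all genes, and 71 of 72 members lay above 0. All 4 libraries were above 0 for 66 of 72 members (91.7%) and for 24.1% of similar-length genes. The number of calls hung on single libraries, and leaving out 1 of them moved it both ways, down to no member called. The share of all genes called higher moved as well. The median log2 ratio without a library stayed between 0.92 and 1.40, and at least 69 of 72 members stayed above 0.

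Genes of the small subunit and of the large subunit were alike in the size of the excess, with medians on the log2 scale of 1.14 for 29 RPS genes and 1.13 for 43 RPL genes. The highest member was RPS28, which had 22, 9, 21 and 10 peaks where 5.55, 2.30, 7.45 and 1.76 were expected. Its log2 ratio was 1.83 ± 0.19 (SE, n = 4 libraries, limma adjusted p = 0.00897). RPS15A had 25, 16, 17 and 15 peaks against 8.91, 4.67, 8.70 and 1.70 expected (log2 1.72 ± 0.30, adjusted p = 0.0380). Every library of both genes was above its expectation, and the values at 10 and 20 min overlapped.

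Among other members of the small subunit, RPS12 had 20, 12, 16 and 12 peaks, a log2 ratio of 1.66 ± 0.26. RPS27A, whose protein is made as a fusion with ubiquitin, had 19, 18, 21 and 17 peaks and a log2 ratio of 1.41 ± 0.22. RPSA, also known as the laminin receptor, had 30, 26, 33 and 15 peaks over a longer gene model and a log2 ratio of 1.11 ± 0.19. All of these passed the test, with adjusted p of 0.0288, 0.0298 and 0.0337.

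On the large subunit, RPL21 had 24, 15, 23 and 22 peaks (log2 1.71 ± 0.29), RPL9 had 24, 26, 23 and 15 (1.70 ± 0.24), and RPL32 had 25, 19, 19 and 17 (1.68 ± 0.28). RPL28 had 38, 28, 42 and 24 peaks (1.61 ± 0.22), and RPL24 had 23, 11, 23 and 17 (1.41 ± 0.17). RPL11, which together with RPL5 and the 5S ribosomal RNA can bind the p53 regulator MDM2, had 26, 13, 22 and 11 peaks and a log2 ratio of 1.44 ± 0.19. Adjusted p of these 6 genes lay between 0.0154 and 0.0339. RPL3 had 18, 23, 22 and 19 peaks, and its log2 ratio of 1.42 ± 0.34 missed the threshold (limma adjusted p = 0.0717). With the replicate number as a block it passed (limma adjusted p = 0.0297).

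The genes of the P-stalk, which recruits translation factors to the ribosome, differed from each other. RPLP1 had 23, 17, 18 and 13 peaks where 7.89, 4.46, 8.18 and 2.98 were expected (log2 1.59 ± 0.20, adjusted p = 0.0172). RPLP0 had 23, 21, 22 and 14 peaks (log2 1.39 ± 0.26, adjusted p = 0.0439). RPLP2 had 9, 9, 17 and 10 peaks where 13.1, 5.02, 12.5 and 5.17 were expected, and its log2 ratio of 0.40 ± 0.25 did not pass the test (adjusted p = 0.372). In RPLP2 CPT10 replicate 1 lay below expectation and the other 3 libraries above it.

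The lowest members with peaks were RPL36 (log2 0.018 ± 0.17), RPL37A (0.10 ± 0.19) and RPS15 (0.35 ± 0.24), none of which passed the test. The annotated gene of RPL37A spans 80356 bp and its canonical transcript 5243 bp, and that of RPL36 spans 16929 bp against 1581 bp, so that most of either window lay outside the main transcript. RPS15 had 12, 5, 10 and 8 peaks where 9.04, 5.53, 10.4 and 3.24 were expected, so that CPT10 replicate 2 and CPT20 replicate 1 lay just below expectation. On canonical transcripts 45 of 72 members were called higher, against 2.63% of all genes, and the median log2 ratio was 1.24.

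**Figure D2:**
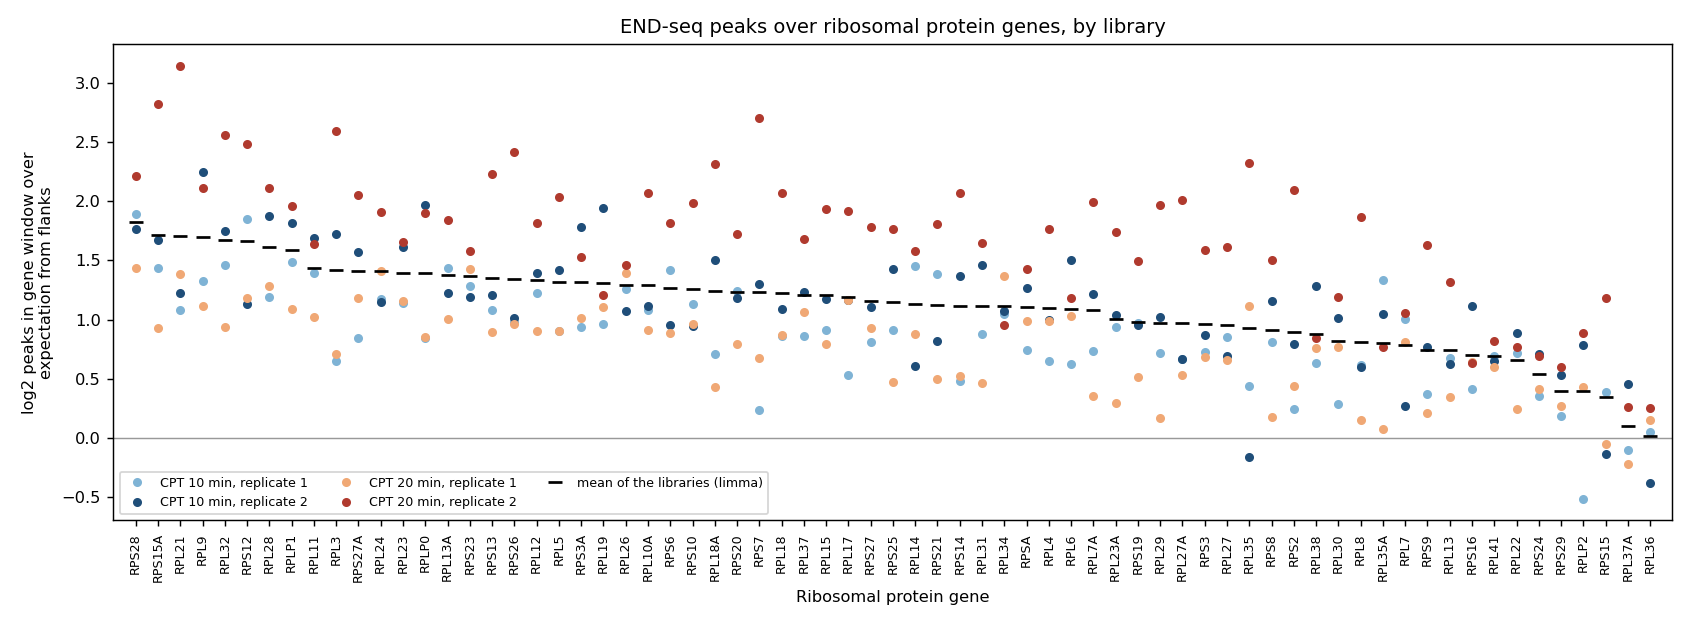
Log2 ratio of END-seq peaks in the window of each of 69 ribosomal protein genes to the number expected from its flanks (y axis), for each of 4 libraries (points) and their mean (dash), ordered by the mean. Points of CPT20 replicate 2 are the highest for 56 of the 69 genes, and all means shown lie above 0.

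The excess stepped up at the 5′ end of the genes. In the 5 kb upstream of the annotated 5′ end, members had 1.35, 1.27, 1.15 and 1.53 times the peaks expected from the flanks, and in the 5 kb downstream 2.54, 3.98, 2.25 and 6.18 times. Similar-length genes had 1.05, 1.05, 1.06 and 1.10 times upstream and 1.18, 1.21, 1.25 and 1.46 times downstream. More peaks lay downstream than upstream in 61, 63, 58 and 66 of 73 members, and the counts summed to 600, 556, 544 and 518 peaks downstream and 320, 177, 278 and 128 upstream. In 0.5 kb bins around canonical transcripts the ratio of CPT20 replicate 2 went from 2.61 in the last bin before the start to 7.12 in the first bin after it, and that of CPT10 replicate 2 from 1.48 to 2.97. The other libraries went from 1.90 to 2.44 and from 0.984 to 2.38.

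The excess ran along the whole gene and past its end. Over the 5 kb past the 3′ end members had 1.86, 2.01, 1.81 and 3.29 times the expected peaks, against 1.10, 1.08, 1.12 and 1.17 times for similar-length genes. In the 0.5 kb bin that ended 5 kb past the 3′ end the ratios had come down to 1.43, 1.27, 1.64 and 2.61. Exons and introns of the canonical transcripts were much alike, with 2.58, 3.76, 2.25 and 5.80 times the expected peaks in exons and 2.60, 4.17, 2.33 and 6.40 times in introns.

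**Figure D3:**
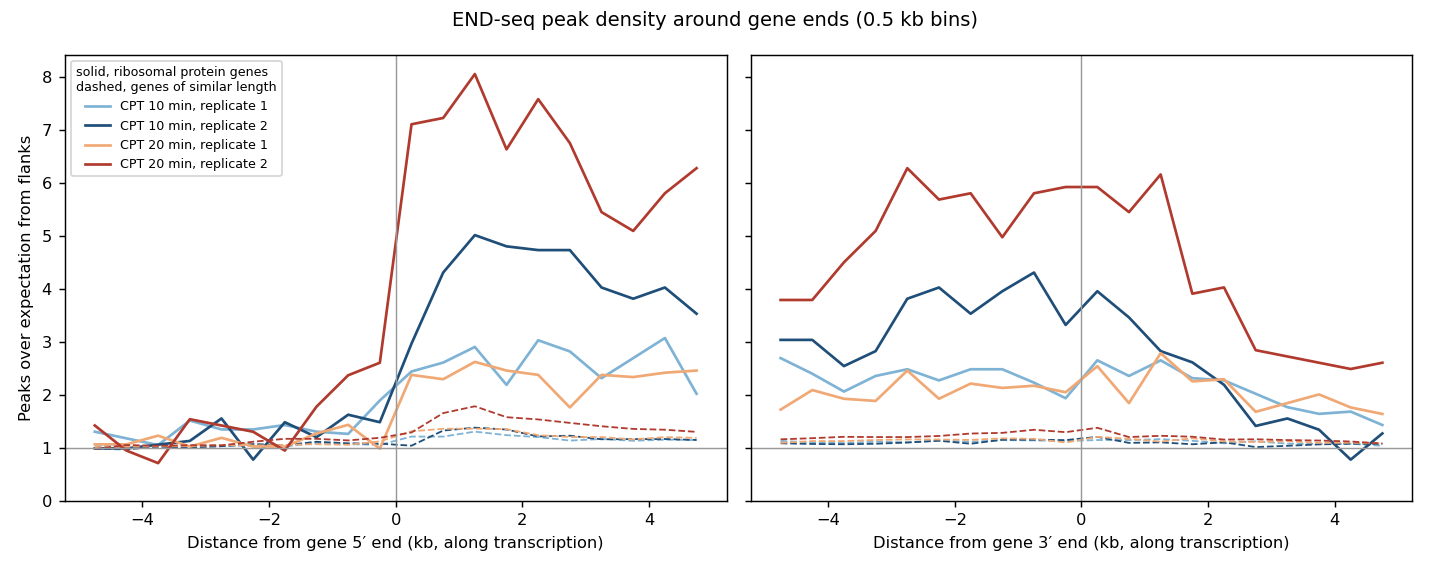
END-seq peaks over the number expected from the flanks (y axis) in 0.5 kb bins from 5 kb before to 5 kb after the 5′ end (left) and the 3′ end (right) of canonical transcripts, along transcription. Solid lines are 72 ribosomal protein genes and dashed lines similar-length genes, 1 colour per library. Solid lines step up at the 5′ end in all 4 libraries, to 8.06 at the highest, and come down over the 5 kb past the 3′ end.

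The limma test of downstream over upstream peaks, over 17411 genes with at least 10 peaks within 5 kb of the 5′ end, called 0 of 71 members, and it called 0.0% of all genes tested. At an unadjusted p under 0.05, 49 of 71 members were higher downstream, against 10.2% of all genes. The median log2 ratio was 1.60 over members and 0.20 over all genes, and 66 of 71 members lay above 0. Over all alternative settings, fits without 1 library included, the median over members stayed between 1.11 and 2.25. The highest were RPS26 (9, 9, 9 and 11 peaks downstream, 2, 0, 4 and 0 upstream, log2 2.94 ± 0.72), RPL29 (2.79 ± 0.56), RPL17 (2.66 ± 0.51), RPS14 (2.66 ± 0.50) and RPL37A (2.63 ± 0.67), all with an adjusted p of 0.330. Among the lowest were RPL6 (log2 −1.14 ± 0.63), RPL36 (−0.70 ± 0.43), RPS29 (−0.60 ± 0.43) and RPL41 (−0.060 ± 0.47), with adjusted p of 0.454 or above. With starts of canonical transcripts RPL6, RPL36 and RPS29 turned positive, at 1.73, 1.29 and 1.23.

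With peaks of a −log10 q of at least 10, 40 of 60 members were called higher downstream, against 23.5% of all genes in that fit. That fit kept only genes with at least 10 such strong peaks within 5 kb of the 5′ end. A gene could enter it through its downstream peaks alone, so no conclusion on position is drawn from this count. Peaks over members were also stronger as such. In the 8 lists, 14.3 to 42.2% of peaks in members' windows had a −log10 q of at least 10, against 3.59 to 21.4% of peaks in windows of similar-length genes. The best −log10 q of a member, in the lowest case, was 13.1 in CPT10 replicate 1 (RPLP2), 5.50 in CPT10 replicate 2 (RPL35) and 7.67 in CPT20 replicate 2 (RPL35A).

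The direction of the reads was uneven at both ends of the genes. In the 0.5 kb after the 5′ end, peaks of reads running against transcription were 5.15 times their expected number (mean of 4 libraries, range 3.20 to 9.96), and those of reads running with transcription 2.30 times (1.56 to 4.27). In the 0.5 kb after the 3′ end the order was the other way round, with 2.93 times against (2.13 to 4.27) and 4.62 times with transcription (2.95 to 7.59). Upstream of the 5′ end over 5 kb, the number of peaks running with transcription per peak running against it was 0.730, 0.654, 0.675 and 0.707, and past the 3′ end it was 1.24, 1.78, 1.09 and 1.34. In similar-length genes these numbers were 0.960, 0.926, 0.971 and 0.999 upstream and 1.01, 1.04, 1.03 and 1.09 past the 3′ end. Every library of the members lay on the same side of 1 at either end, and so did every library of similar-length genes, nearer to 1. Over all autosomal protein-coding genes the numbers were 0.899, 0.880, 0.914 and 0.887 upstream and 1.05, 1.09, 1.07 and 1.14 past the 3′ end. The 0.5 kb bins of similar-length genes had the same order with smaller values. In CPT20 replicate 2 these were 1.66 against and 0.918 with transcription after the 5′ end. No test was made.

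**Figure D4:**
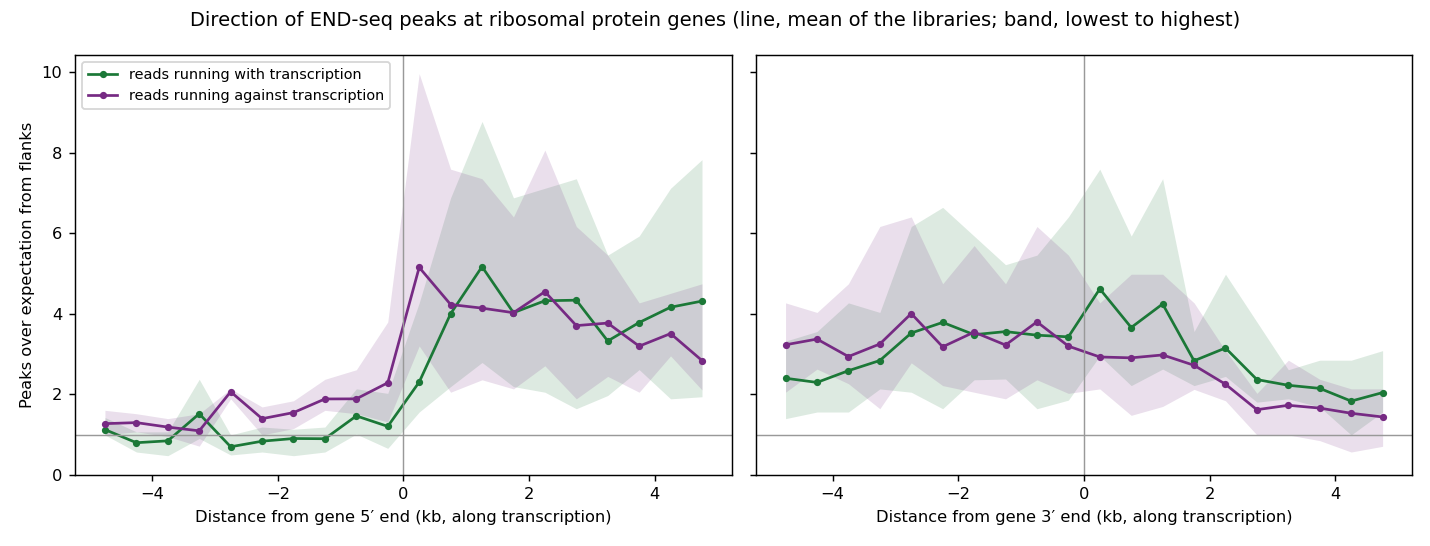
END-seq peaks over the number expected from the flanks (y axis) in 0.5 kb bins around the 5′ end (left) and 3′ end (right) of 72 ribosomal protein genes, for reads running with transcription (green) and against it (purple). Lines are means of 4 libraries and bands run from the lowest to the highest. Purple leads just after the 5′ end, 5.15 against 2.30, and green just after the 3′ end, 4.62 against 2.93.

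Merging the replicated sites of both times gave clusters. They were called persistent where sites of both times overlapped, transient where replicated at 10 min only and late where replicated at 20 min only. The study uses these names for clusters raised over control in a test of read counts, so its classes are unlike these. A transient or late cluster could hold unreplicated sites of the other time. The transient cluster at RPSA had a −log10 q of 25.7, 4.57, 32.0 and 4.10. Libraries held 18831 (CPT20 replicate 2) to 102733 (CPT10 replicate 1) sites. The classes are thus no measure of breaks gone by 20 min or absent at 10 min. Members' windows make up 0.0493% of the autosomes. They held 74 of the 931 persistent clusters (7.95%), 27 of the 2958 transient clusters (0.913%) and 42 of the 1899 late clusters (2.21%). Persistent clusters lay over 54 members, and the other 6 members with replicated sites at both times had them at different positions. Persistent clusters at members had a median width of 2683 bp, against 1686 bp elsewhere.

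The midpoint of a persistent cluster lay a median of 2176 bp downstream of the member's canonical 5′ end. Of the 76 pairs of a persistent cluster and a member, 3 were upstream of the 5′ end, 15 in an exon, 40 in an intron and 18 past the 3′ end. Late clusters lay a median of 3152 bp downstream and transient ones 4013 bp downstream. The leading persistent clusters, by the worst rank of their strength in the 4 libraries, were those at RPL7, RPL37 and RPLP0. The cluster at RPLP0 had a −log10 q of 42.6, 10.7, 33.1 and 34.9. The cluster at RPL30 had the highest value among members in CPT10 replicate 1 of the leading 10, with 80.6, 8.43, 50.1 and 17.1.

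The sequence at the midpoint of a cluster is shown for 3 of the leading persistent clusters with a midpoint outside annotated exons (hg19, read along transcription of the member, cut where an exon begins). Capitals mark the 11 bases around the summit of any forward or reverse peak of the 8 lists.
RPL41, chr12:56511183-56511264, plus strand: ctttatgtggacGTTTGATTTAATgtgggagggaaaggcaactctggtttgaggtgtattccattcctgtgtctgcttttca
RPL10A, chr6:35438601-35438800, plus strand: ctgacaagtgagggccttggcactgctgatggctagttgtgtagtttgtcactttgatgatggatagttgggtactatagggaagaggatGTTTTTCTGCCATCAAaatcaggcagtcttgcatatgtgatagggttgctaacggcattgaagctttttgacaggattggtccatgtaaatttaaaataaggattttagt
RPL27, chr17:41152120-41152211, plus strand: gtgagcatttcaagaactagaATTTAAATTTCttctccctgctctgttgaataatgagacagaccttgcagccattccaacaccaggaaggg
The stretches of RPL41 and RPL27 lie in introns of these genes, and that of RPL10A past the 3′ end of the canonical transcript. The stretch of RPL41 holds 2 reverse summits, that of RPL27 1 reverse summit and that of RPL10A 2 forward summits.

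The comparison of 20 min with 10 min asked whether the excess at these genes changed with exposure. Windows of members held 1.99 ± 0.30 times the expected peaks at 10 min and 2.46 ± 1.14 times at 20 min (mean ± SD, n = 2 libraries). The spread between replicates at 20 min exceeded the difference between times. The limma test of the change in log2 ratio called 0 of 72 members and 0.0% of all genes tested. At an unadjusted p under 0.05 it gave 1 member, RPL35, against 3.29% of all genes. RPL35 had 14, 5, 21 and 13 peaks where 10.2, 5.64, 9.40 and 2.19 were expected, a change of log2 1.58 ± 0.49 (adjusted p = 0.992). The median change over members was 0.27, against 0.032 over all genes, and it ran from −0.24 to 0.68 over all settings. It was −0.24 without CPT20 replicate 2 and −0.053 on lists of equal length, so its direction rested on that library and on list length.

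Among the members, the excess varied little with features of the genes. The 27 members with a snoRNA inside the gene had a median log2 ratio of 1.23 and the 45 without one in the fit 1.13, with replicated sites at both times overlapping in 24 of 27 and 30 of 46. The 34 members with no other protein-coding 5′ end in their window had a median of 1.23, and the 38 with such a neighbour 1.08. Fitted on genes without such a neighbour, 18 of 34 members were called higher, against 1.69% of all genes in that fit. The 12 members on chromosome 19, a gene-dense chromosome, had a median of 1.18. The members of more than the median length of 5330 bp had a median of 1.11 and the shorter ones 1.21. These are descriptions of groups that overlap, with no test.

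The other lists were tested in the same fit. Of 48 ribosome biogenesis genes, 4 were called higher and 0 lower, with a median log2 ratio of 0.58. Of 77 mitochondrial ribosomal protein genes, 7 were called higher and 0 lower, with a median of 0.29. Of 8 L-suffixed paralogs, 2 were called higher and 0 lower, with a median of 0.38 and a highest value of 1.97, above the highest member. Pseudogenes were not in the fit, and their summed ratios of 0.958, 1.01, 0.979 and 0.953 were close to 1 in each library. The lists were not tested against each other.

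RPS18 had no peak in its window in any list. Its flanks held 0 peaks in all libraries too, so that it was left out of the fit. RPS18 lies on chromosome 6 (33239852 to 33244288), for which the peak lists also contain alternative haplotype sequences with 6 to 34 peaks a list. Only reads with a mapping quality of at least 30 entered the peak calling. The part of these in the missing peaks was not tested, and the values are not a measure of breaks at this gene.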

How the data were processed

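The 6 samples were END-seq libraries of HCT116 cells, untreated or given 10 µM CPT for 10 or 20 min, and held mouse pre-B cells for spike-in scaling. Per the study's methods and the labels, the authors trimmed reads with Trim Galore, aligned them to hg19 with Bowtie2, filtered proper pairs at mapping quality 30 with SAMtools, duplicates included, and ran MACS2 separately by replicate and orientation against the control, without local background, at a q-value of 0.05. The peaks carry no spike-in scaling. In the 8 deposited lists each peak has a score, a fold enrichment given as a linear ratio, a −log10 p-value, a −log10 q-value and the summit offset. The authors' values were used only to rank, filter and describe peaks. Peak lists are not read counts, and the read numbers that the study reports for its libraries were not used here.

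Genes came from GENCODE release 44 mapped to GRCh37, the build of the files for chromosomes 1 to 22. Peaks were counted by summit (Python 3.11.15, pandas 2.3.3, bedtools 2.31.1). Density was log2((peaks in window + 0.5)/(peaks expected from 45 kb of flank on each side + 0.5)), or peaks within 5 kb downstream over upstream, with the same pseudocount, which shrinks ratios of genes with few peaks. Genes with fewer than 20 peaks, or 10 near the 5′ end, were left out. Both were fitted with limma 3.58.1 (R 4.3.3) with an intercept and centred time, eBayes without trend and robust estimation, and Benjamini-Hochberg adjustment over all genes. The study's methods list its libraries under 2 experiments, each with all 3 conditions, so same-numbered replicates may share an experiment, although no source used here ties the numbers to them. Deviations of same-numbered libraries from their time's mean correlated at 0.059 over 18829 genes. With 4 libraries 2 residual degrees of freedom remained, and the scripts were tested on simulated data. Sites followed the study's pairing of reverse and forward peaks, without its later read-count filter and blacklist. Shares have 95% Wilson intervals.

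Named genes could be those with a persistent cluster, of which the leading ones are named, the 12 highest and 5 lowest mean densities, the 5 highest and 5 lowest downstream over upstream values, any called between times, the P-stalk genes and RPSA. RPL35 and the members listed by site pattern or lowest best q were chosen after their values were seen. No sequence from chromosome 8 is shown. Some members and sequences are not reported individually here, though counts over the list include these members. The members and lists were chosen with earlier results of these data known. As alternatives, peaks were limited to a −log10 q of at least 3 or 10. Others were lists of equal length, canonical transcripts, genes without neighbouring starts, a pseudocount of 2, no filter, flanks of 20 kb, the gene body alone, scaling to library medians, 50% reciprocal overlap, background genes within 20% in length, a replicate block, leaving out each library and, chosen after seeing the data, a trended prior.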

Additional observations from a re-analysis of the deposited data

How the results depend on the processing

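Of the members' window densities, 38 were called higher (2.42% of all genes). Counts below without a share of all genes beside them are not read against other genes. The count of 38 became 43 with the replicate block (1.82%), 44 and 40 at −log10 q of at least 3 and 10, 45 on canonical transcripts and 26 on the gene body alone. It moved further on lists of equal length (58, against 4.45% of all genes), among the 34 genes without a neighbouring start (18, 1.69%), with a pseudocount of 2 (63, 7.31%), with flanks of 20 kb (23, 1.25%) and with no filter on genes with few peaks (0 by limma, 64 at an unadjusted p under 0.05 in either direction). Leaving out 1 library each gave 0 to 62. Chosen after seeing the data, a trended prior gave 0 (68 likewise) and scaling to library medians 65 (12.1% of all genes). The cause was not tested, except that leaving out a library leaves 1 residual degree of freedom, with the lone library of a time assumed to vary like the others. The median over members stayed between 0.92 and 2.15 in log2 units in all of these settings.

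The replicate block moved no count of calls by over 1.5 times, and 37 of the 38 members called without it were called with it. Among the genes named by density, RPL3 was the only one whose call it changed. The downstream over upstream test called 0 members in all settings, leave-one-out fits included, but for 40 at −log10 q of at least 10. Genes could enter that last fit through strong downstream peaks alone. The change from 10 to 20 min called 0 in all settings, leave-one-out fits included.

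Replicated sites at a −log10 q of at least 10 were left in 9 members at 10 min and 30 at 20 min. With no limit on q, replicated sites were found in 30 of the 34 members without a neighbouring start at 10 min and in 31 of 34 at 20 min. Of similar-length genes without a neighbouring start, 7.48% and 7.68% had one. At 50% reciprocal overlap 39 members had one at 20 min. Leaving out a library gives no value for replicated sites, which need both.

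Single genes near 0 changed sign. RPL36 had a window ratio between −0.089 and 0.13 in leave-one-out fits (−0.0067 without CPT20 replicate 2) and of −0.65 on the gene body. RPL37A had −0.038 to 0.24 in leave-one-out fits (−0.019 without CPT20 replicate 2) and −0.040 with library medians. RPL41 had a downstream over upstream ratio of −0.35 to 0.23 in leave-one-out fits (0.17 without CPT10 replicate 2), 0.26 and 2.01 at −log10 q of at least 3 and 10 and 0.29 on lists of equal length. On canonical transcripts the ratio was 1.29 for RPL36, 1.73 for RPL6 and 1.23 for RPS29. Read depth and a background measured in untreated cells were not used here, so absolute levels of breaks cannot be given.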
